A study of Rattus norvegicus with 12 samples.

Results

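The genes described here are those that activate, carry, oxidise or hydrolyse fatty acyl groups in the rat liver, together with the genes that build peroxisomes. They were chosen by name from the deposited table: every gene whose symbol begins with Acad, Acaa, Acot, Acox, Acsl, Acsm, Cpt, Decr, Eci or Pex, plus Hadh, Hadha, Hadhb, Ehhadh, Echs1, Etfa, Etfb and Etfdh, if it was above 0 in at least 1 liver. This gave 61 of 15270 gene names. The same names had 86 of the 21718 transcripts above 0 in a liver, and each of the 17 genes with several transcripts is represented by the one with the highest mean level. Poly(A) RNA was sequenced from the livers of 12 female inbred alcohol-preferring iP10a rats, 1 library per animal. The 6 EtOH animals drank from bottles of 10, 20 and 30% ethanol (v/v) or water as they chose for 23 weeks, and the 6 control animals had water. All had food and tap water ad libitum and were 38 weeks old at collection, except EtOH animal 6, which was 39 weeks old. The strain is inbred and bred to drink, both groups carry that background, and only females were used.

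Fatty acids enter oxidation as acyl-CoA, made by acyl-CoA synthetases. Long chains cross into mitochondria as carnitine esters, and each round of beta-oxidation then runs through an acyl-CoA dehydrogenase, a hydratase, a hydroxyacyl-CoA dehydrogenase and a thiolase, with the electrons leaving through the electron transfer flavoprotein. Peroxisomes run a parallel route for very long and branched chains that starts with an acyl-CoA oxidase, and in the rodent liver many genes of both routes are targets of the nuclear receptor PPAR alpha, which acts with RXR.

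Levels are RPKM, mapped reads scaled to transcript length and library size, so they can be compared between genes as levels per length. The recovered reads behind them ranged from 2610238 to 4318141 per control liver and from 3945593 to 6030028 per EtOH liver. The tissue label was borne out by hepatocyte markers, with Alb between 57999 and 92323 RPKM in every liver. Of the 8 matched hepatocyte markers Cps1 was called higher in the EtOH livers and none lower. Quantile normalization gives the top-ranked transcript the same value in every liver. Alb, with a log2 fold change of 1.9e-15, could therefore not be called either way. Apoa2 had a log2 fold change of -0.29 and Ass1 of 0.46, both without a call. All 6 matched Kupffer cell markers had log2 fold changes above 0, and 3 of them (Clec4f, Cd163 and Vsig4) were called higher in the EtOH livers, beside 1.13% of all transcripts. The 6 summed to 108 to 169 RPKM in control and 148 to 189 in EtOH livers. The 7 stellate cell markers summed to 20.9 to 30.8 RPKM in control and 31.5 to 43.5 in EtOH livers, with no single marker called. The part of cell makeup in the results below was not tested, and in these bulk samples fewer cells of a type and less RNA per cell cannot be told apart.

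Of the 61 genes, 4 differed between the groups. Acsm2, Acsl1 and Etfb fell and Acadsb rose in the EtOH livers, by limma on quantile-normalized log2(RPKM + 0.5) with Benjamini-Hochberg adjustment over all 21718 transcripts and a threshold of 0.05. That is 6.56% of the genes, beside 2.42% of all transcripts called. Lower calls came to 4.92% of the genes against 1.29% of all transcripts, and higher calls to 1.64% against 1.13%. Most of the 61 genes are well expressed, 54 of them at a mean of 1 RPKM or more, and among all transcripts at that level 4.47% were called, beside 4 of these 54 genes (7.41%). An unadjusted p under 0.05 was reached by 14 of the genes (23%), 10 lower and 4 higher, and by 15.5% of all transcripts. When only transcripts averaging 1 RPKM or more were fitted, 7 of the 54 genes were called (13%) beside 7.76% of all, 5 lower and 2 higher beside 3.97% and 3.79%. Without normalization between livers the split of calls was 6 lower and 1 higher (2.98% and 0.58% of all transcripts), and with median scaling 1 lower and 1 higher (1.55% and 0.893%).

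The deposited RPKM of abundant transcripts lay lower in the EtOH livers before any normalization, which bears on every gene below. Over the 1041 transcripts that averaged 50 RPKM or more the median log2 fold change was -0.13 without normalization and 0.0012 after quantile normalization. The median of the 61 genes was -0.19 without and -0.064 with it, with 46 and 37 genes below 0, and that of the 24 among them at 50 RPKM or more was -0.17 without and -0.015 with it. Median scaling gave -0.097 and 41 genes. Acot6, Pex5l, Acsm4 and Acsl6 were at 0 in every control liver, so the selection itself put their raw difference above 0. The Acot1 transcript used was at 0 in every EtOH liver, which put its raw difference below 0. All of them are in these counts and medians. In raw RPKM the 61 genes took 0.833% ± 0.05 of the control and 0.761% ± 0.047 of the EtOH total (SD, n = 6 each). Fold changes below are on the normalized log2(RPKM + 0.5) scale, EtOH minus control, with their standard error, while levels are RPKM as deposited, so a gene can have lower RPKM in the EtOH livers and a fold change near 0.

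**Figure D1:**
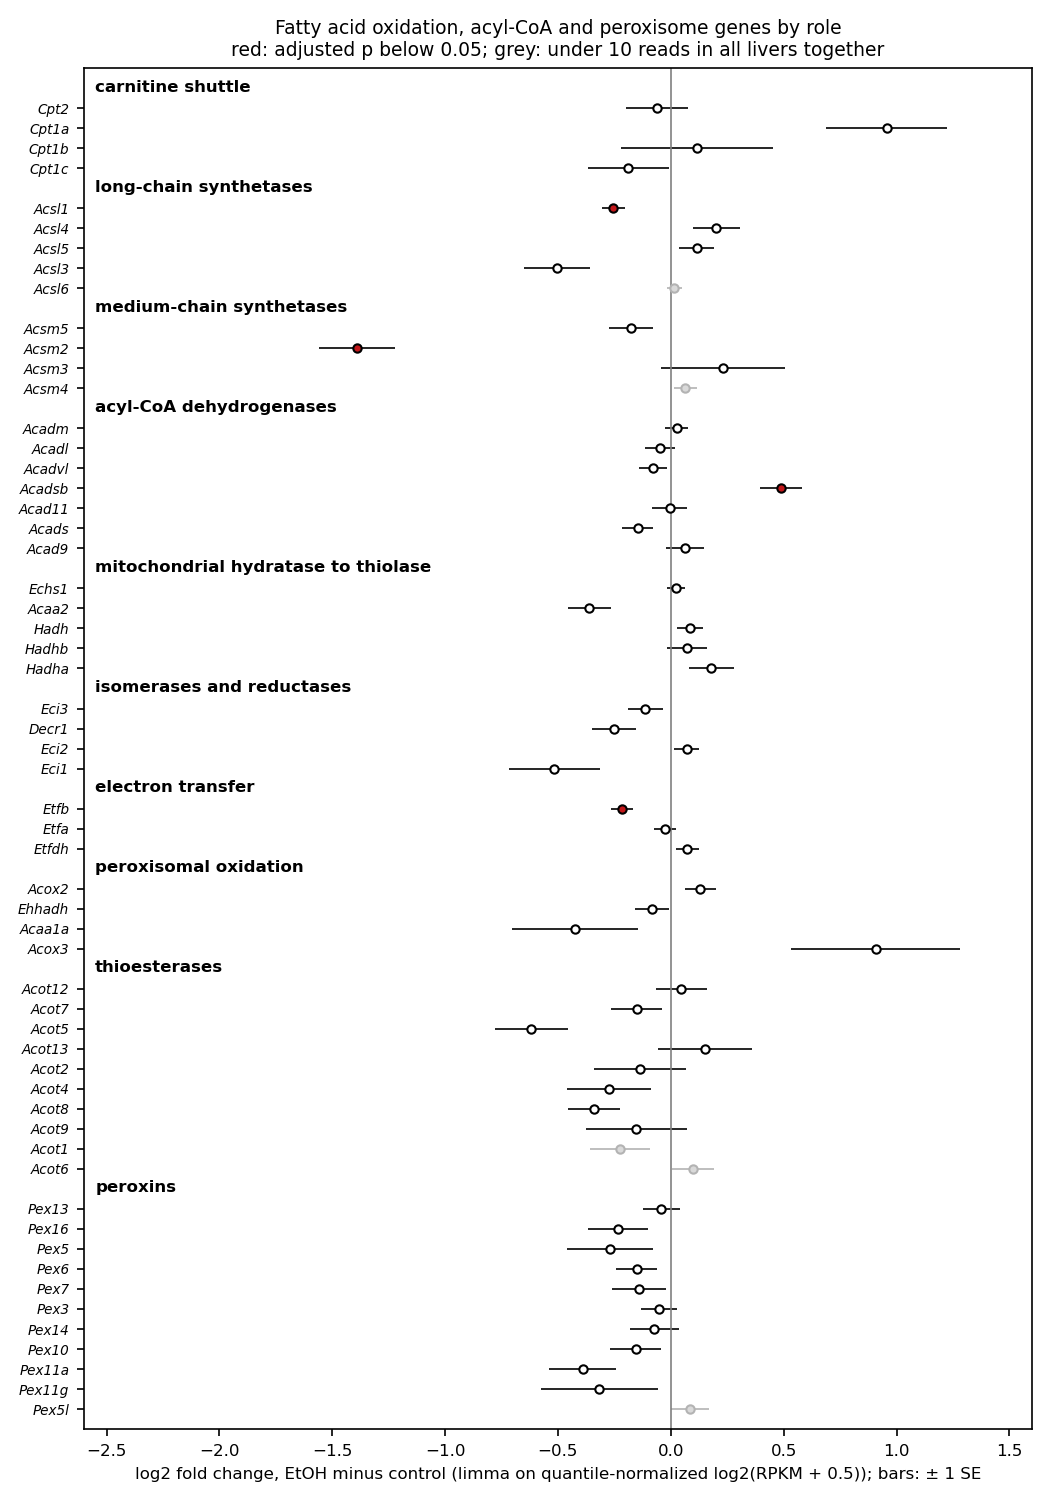
Log2 fold change (EtOH minus control, normalized log2(RPKM + 0.5) scale) of 57 of the 61 genes with bars of 1 standard error, grouped by role and ordered by mean level within a role. The red points are the 4 called genes, Acsm2 at -1.39, Acsl1 at -0.25, Etfb at -0.22 and Acadsb at 0.49, and the grey points are the 5 genes with fewer than 10 recovered reads in all livers together.

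The medium-chain acyl-CoA synthetases, mitochondrial enzymes that activate medium-chain fatty acids and some xenobiotic acids, held the largest difference of the 61 genes. Acsm2 had 19.8 RPKM in the lowest, 30.5 at the median and 43.2 in the highest control liver, against 8.25, 9.89 and 11.5 in the EtOH livers. The groups did not overlap, and the control livers were spread far more widely, with a coefficient of variation of 32.8% against 11.0%. The mean was 31.0 ± 10.2 RPKM in control and 9.96 ± 1.09 in EtOH livers (SD, n = 6 each), 3.11 times lower in the EtOH animals. The log2 fold change was -1.39 ± 0.17 (SE, adjusted p = 0.0022), and Acsm2 was called in each of 24 alternative analyses, with adjusted p up to 0.0269. It rests on 106 to 376 recovered reads per liver.

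Acsm2 is listed at chr1:177830613-177869061, in a cluster that spans 304 kb with its relatives Acsm5, Acsm4 and Acsm3. Acsm5, which ends 22489 bases before Acsm2 begins, had 28.5, 35.2 and 42.9 RPKM (lowest, median and highest) in control and 23.6, 28.7 and 31.3 in EtOH livers, and was not called (-0.18 ± 0.097, adjusted p = 0.44). Acsm3 had 8.13, 10.7 and 14.3 RPKM in control and 6.37, 12.5 and 22.3 in EtOH livers (0.23 ± 0.27, adjusted p = 0.70). Acsm4 had 2 reads in all livers together. Summed over its transcripts, Acsm5 had 32.0, 35.8 and 44.2 RPKM in control and 25.2, 29.1 and 31.5 in EtOH livers, without overlap (-0.20 ± 0.083, adjusted p = 0.19). Likewise summed, Acsm3 had 8.13, 10.7 and 14.3 in control and 11.9, 13.2 and 22.3 in EtOH livers (0.52 ± 0.17, adjusted p = 0.0867). The low Acsm3 values of EtOH animals 2 and 6 were thus those of the main transcript alone, and neither gene was called either way. The difference between the fold changes of Acsm2 and its neighbours was not tested. The sources do not say how reads shared between such relatives were assigned, so levels within the family are uncertain to that extent.

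The bases before the start of Acsm2 and of its neighbour Acsm5 show what the called and the not called gene of this cluster carry there. They are the 250 bases upstream of each gene's start in the RefSeq annotation of GRCr8, plus strand, 5′ to 3′, at chr1:183347455-183347704 for Acsm2 and chr1:183302259-183302508 for Acsm5. Capitals mark the E-box CACGTG and AGGTCA, the hexamer that nuclear receptors such as PPAR and RXR bind. AGGTCA is marked on either strand, and TGACCT is its reverse complement.
Acsm2: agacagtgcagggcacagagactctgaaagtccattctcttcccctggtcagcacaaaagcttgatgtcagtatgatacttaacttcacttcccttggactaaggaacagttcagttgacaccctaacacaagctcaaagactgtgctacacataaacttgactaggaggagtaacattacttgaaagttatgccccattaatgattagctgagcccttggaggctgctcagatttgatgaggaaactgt
Acsm5: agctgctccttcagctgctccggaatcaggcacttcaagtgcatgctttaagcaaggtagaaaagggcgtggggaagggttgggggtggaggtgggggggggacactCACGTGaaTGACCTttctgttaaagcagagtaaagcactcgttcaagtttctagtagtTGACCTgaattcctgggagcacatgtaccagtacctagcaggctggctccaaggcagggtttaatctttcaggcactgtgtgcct
The Acsm2 stretch holds neither motif, and the Acsm5 stretch holds AGGTCA 135 and 85 bases before the start and an E-box 143 bases before it.

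Among the long-chain acyl-CoA synthetases, which activate the common dietary fatty acids, Acsl1 fell and was the most abundant of all 61 genes. It had 704, 727 and 811 RPKM (lowest, median and highest) in control and 559, 614 and 677 in EtOH livers, so the groups did not overlap. The mean was 743 ± 43.1 in control and 619.7 ± 45.9 RPKM in EtOH livers (SD, n = 6 each), with a log2 fold change of -0.25 ± 0.049 (SE, adjusted p = 0.023). At 7498 to 14601 reads per liver this small difference is measured with little counting error, yet the call depended on single animals: without control animal 2, EtOH animal 3 or EtOH animal 5 the adjusted p was 0.053, 0.0518 and 0.0535, within a range of 0.00873 to 0.16 over all alternatives. Acsl1 is listed at chr16:49036892-49081416.

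Acsl4, which prefers arachidonic acid, and Acsl5 had 167.8 ± 24.2 and 150.9 ± 14.2 RPKM in control and 173 ± 11.3 and 146 ± 11.3 in EtOH livers, and were not called (0.20 ± 0.11 and 0.11 ± 0.076, adjusted p = 0.40 and 0.53). Acsl3, an isoform of the endoplasmic reticulum and lipid droplets, had 15.3, 17.1 and 19.0 RPKM in control and 8.05, 11.0 and 16.9 in EtOH livers. In 5 of the 6 EtOH animals Acsl3 lay below the lowest control liver, and EtOH animal 1 lay within the control range. It was not called (-0.50 ± 0.15, adjusted p = 0.097), but was called when EtOH animal 1 was left out (adjusted p = 0.015) and without normalization (0.0266), within a range of 0.015 to 0.182 over the alternatives. Acsl6 was above 0 in a single EtOH liver, at 0.0656 RPKM.

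In the carnitine shuttle, Cpt1a, the liver carnitine palmitoyltransferase whose inhibition by malonyl-CoA limits entry of long chains into mitochondria, had the largest positive fold change of the 61 genes but was not called. It had 17.0, 20.9 and 37.1 RPKM (lowest, median and highest) in control and 22.9, 38.7 and 68.6 in EtOH livers. All 6 EtOH livers lay above the control median, EtOH animals 4 and 6 were highest at 61.2 and 68.6, and control animal 6, at 37.1, lay above 3 of the EtOH animals. The log2 fold change was 0.96 ± 0.27 (SE, adjusted p = 0.0887). The adjusted p ranged from 0.0382 to 0.164 over the alternatives and was 0.0382 without control animal 6, 0.046 without EtOH animal 1 and 0.0427 when only transcripts averaging 1 RPKM or more were fitted, so the choice of animals and filter decides the call. Cpt2, the matching enzyme of the inner membrane, had 27.5, 41.0 and 54.2 RPKM in control and 27.8, 35.2 and 42.9 in EtOH livers (-0.063 ± 0.14, adjusted p = 0.86). The muscle and brain forms Cpt1b and Cpt1c had means under 1 RPKM in both groups.

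**Figure D2:**
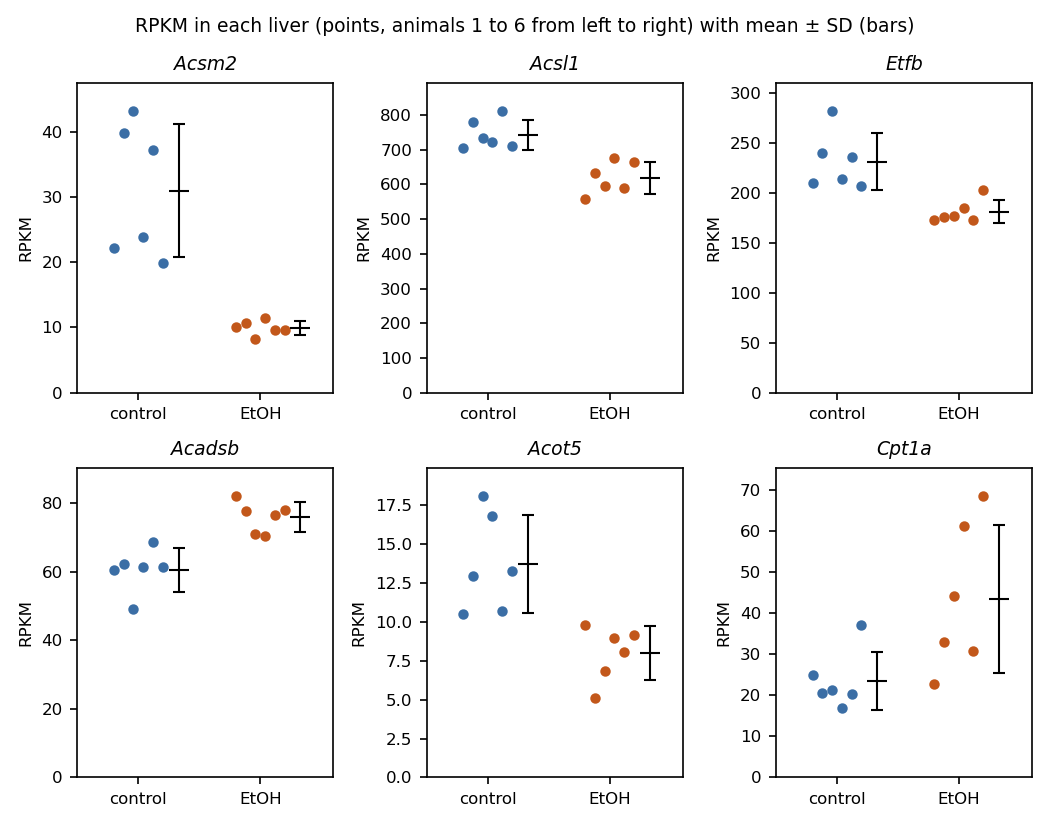
RPKM in each liver (points, animals 1 to 6 from left to right within a group) and mean ± SD (bars) for the 4 called genes and for Acot5 and Cpt1a, which were not called. The groups do not overlap for Acsm2, Acsl1, Etfb, Acadsb and Acot5, and they overlap for Cpt1a, where control animal 6 lies at 37.1 RPKM and the lowest EtOH animal at 22.9.

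The acyl-CoA dehydrogenases take the first oxidative step, each for its own range of chain lengths. Acadsb, the short/branched-chain enzyme that also acts in isoleucine breakdown, rose. It had 49.0, 61.4 and 68.8 RPKM (lowest, median and highest) in control and 70.5, 77.1 and 82.1 in EtOH livers, with no overlap between the groups. The mean was 60.5 ± 6.4 in control and 76.0 ± 4.43 RPKM in EtOH livers (SD, n = 6 each), 1.26 times higher, with a log2 fold change of 0.49 ± 0.093 (SE, adjusted p = 0.0219). Leaving out EtOH animal 2 gave an adjusted p of 0.0575, within a range of 0.00629 to 0.0624 over the alternatives. Acadsb is listed at chr1:190987657-191026275.

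The other 6 acyl-CoA dehydrogenases were not called. The medium-chain enzyme Acadm, the most abundant of the family, had 222, 253 and 282 RPKM in control and 219, 238 and 271 in EtOH livers (0.025 ± 0.052, adjusted p = 0.84). The long-chain enzymes Acadl and Acadvl had 180.5 ± 17.5 and 128 ± 15.9 RPKM in control and 158 ± 14.1 and 108 ± 7.76 in EtOH livers, with fold changes of -0.047 ± 0.066 and -0.081 ± 0.062 (adjusted p = 0.75 and 0.61). The short-chain enzyme Acads had 46.1, 52.4 and 71.3 RPKM in control and 40.3, 42.9 and 47.5 in EtOH livers (-0.15 ± 0.069, adjusted p = 0.34). Acad9, which also assembles respiratory complex I, and Acad11 had 0.063 ± 0.083 and -0.0047 ± 0.077.

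Electrons from these dehydrogenases pass to the electron transfer flavoprotein, a dimer of the products of Etfa and Etfb, and on to its dehydrogenase, Etfdh. Etfb fell. It had 207, 224 and 282 RPKM (lowest, median and highest) in control and 173, 176 and 203 in EtOH livers, without overlap, although EtOH animal 6 at 203 came close to the lowest control animal at 207. The log2 fold change was -0.22 ± 0.048 (SE, adjusted p = 0.036), and the call was lost in 13 of 24 alternatives, with adjusted p between 0.0212 and 0.138. Leaving out any one of control animals 2, 4 and 5 or EtOH animals 1 to 5 lost it, at adjusted p from 0.0508 to 0.082. The partner subunit Etfa had 202 ± 13.2 RPKM in control and 179 ± 12.6 in EtOH livers (-0.026 ± 0.047, adjusted p = 0.82), and Etfdh had 92.1 ± 5.44 and 88.1 ± 3.93 (0.074 ± 0.052, adjusted p = 0.56). Etfb is listed at chr1:93820124-93834284.

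None of the 5 genes of the later mitochondrial steps was called. Echs1, the enoyl-CoA hydratase for short chains, had 220 ± 22.1 RPKM in control and 200.2 ± 13.3 in EtOH livers (0.022 ± 0.040, adjusted p = 0.82). The trifunctional protein subunits Hadha and Hadhb had 55.6 ± 7.45 and 72.5 ± 10.6 RPKM in control and 56.2 ± 4.6 and 67.6 ± 7.68 in EtOH livers, with fold changes of 0.18 ± 0.099 and 0.072 ± 0.087 (adjusted p = 0.44 and 0.71). Hadh, the dehydrogenase for medium and short hydroxyacyl chains, had 0.083 ± 0.058. For Acadm, Echs1 and Hadhb the sign of the fold change turned when the livers were not normalized, so no direction is given.

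Acaa2, a mitochondrial thiolase, came nearest to a call among these genes. It had 181, 235 and 278 RPKM (lowest, median and highest) in control and 123, 174 and 183 in EtOH livers. The groups overlapped only through control animal 1, at 181, which lay below EtOH animal 3, at 183. The log2 fold change was -0.36 ± 0.097 (SE, adjusted p = 0.0766), with a range of 0.0357 to 0.226 over the alternatives and 0.0357 without control animal 1. The isomerases and the reductase that feed unsaturated fatty acids into the pathway were not called either. Eci1 had 40.6, 86.6 and 97.0 RPKM in control and 30.9, 48.0 and 65.6 in EtOH livers (-0.52 ± 0.20, adjusted p = 0.23, and 0.0352 without control animal 1, within a range of 0.0352 to 0.385). Control animal 1 was also the lowest control liver for Decr1, at 90.2 RPKM beside 121 to 137 in the other 5, and Decr1 had -0.25 ± 0.096 (adjusted p = 0.22, and 0.0614 to 0.365 over the alternatives). Eci2 and Eci3 had 0.069 ± 0.054 and -0.11 ± 0.079.

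**Figure D3:**
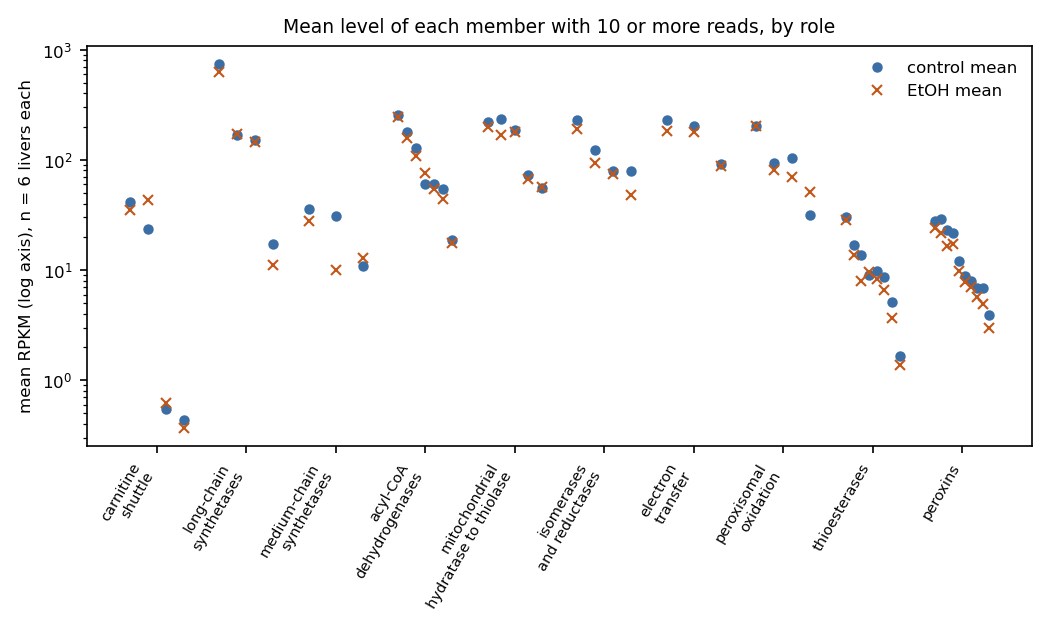
Mean RPKM of each of these 57 genes that had 10 or more reads, in control (circles) and EtOH (crosses) livers, n = 6 each, on a log axis, by role. Acsl1 stands highest at 743 RPKM in control livers, the beta-oxidation enzymes of mitochondria mostly lie above 50, and thioesterases and peroxins lie mostly between 1 and 30.

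Of the 5 peroxisomal oxidation genes none was called. Acox2, the branched-chain oxidase of bile acid synthesis, had 202 ± 20.1 RPKM in control and 203 ± 23 in EtOH livers (0.13 ± 0.067, adjusted p = 0.39). Ehhadh, the bifunctional enzyme that follows the oxidase, had 94.1 ± 13 RPKM in control and 80.2 ± 8.87 in EtOH livers (-0.083 ± 0.076, adjusted p = 0.65). The groups overlapped for both genes.

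The oxidase gene Acox3 and the thiolase gene Acaa1a cannot be read from a single transcript, since the shares of the 3 transcripts listed for each differed widely between livers. In 7 livers (2 control and 5 EtOH) the second Acox3 transcript had 46.9 to 65.5 RPKM and took 84.4 to 88.0% of the gene's summed RPKM, with the first at 3.16 to 4.17 and the third at 4.48 to 6.61. In the other 5 livers (4 control and 1 EtOH) the 3 transcripts lay close together, the second at 16.9 to 23.2 RPKM and 30.0 to 33.5% of the sum. No liver lay between these states. The log2 fold change of the second transcript was 0.91 ± 0.37 (adjusted p = 0.26), while the sum was 63.1 ± 4.42 RPKM in control and 65.6 ± 8.38 in EtOH livers (SD, n = 6 each) and had 0.20 ± 0.079 in a fit on summed transcripts (adjusted p = 0.16). The sources do not say how the authors' software shared reads among the transcripts of a gene.

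Acaa1a, the peroxisomal thiolase, likewise had its first transcript at 0 in control animal 4 and EtOH animals 1, 2 and 5. Its main transcript had 52.4, 99.2 and 158 RPKM (lowest, median and highest) in control and 29.8, 79.7 and 87.9 in EtOH livers and was not called (-0.43 ± 0.28, adjusted p = 0.52). Summed over its 3 transcripts it had 126, 149 and 198 RPKM in control and 87.7, 112 and 120.07 in EtOH livers, so that the groups did not overlap. In a fit on sums over the transcripts of each of 15270 genes, chosen after the values were seen, Acaa1a was called lower (-0.35 ± 0.079, adjusted p = 0.0219).

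That fit called 8 of the 61 genes (13.1%), beside 6.4% of all genes. Acaa1a, Acaa2 (-0.35 ± 0.091, adjusted p = 0.0364) and Acot5 joined Acsm2, Acsl1 and Etfb as lower, 6 in all beside 3.24% of all genes. Cpt1a joined Acadsb as higher (3.28% of the 61 genes, beside 3.16% of all genes), at an adjusted p of 0.045. The minor Acsm3 transcript was above 0 in EtOH animals 2 and 6 only, where the main one made up 47.4% and 57.9% of the sum.

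**Figure D4:**
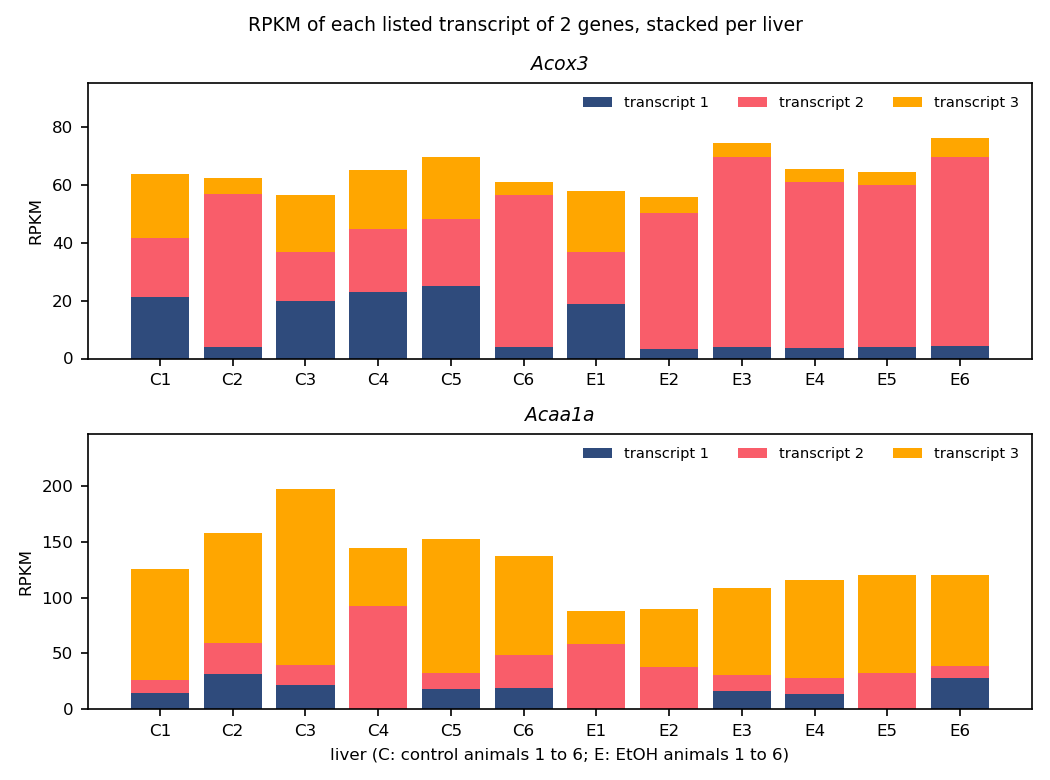
RPKM of each listed transcript of Acox3 and Acaa1a, stacked per liver (C, control animals 1 to 6, E, EtOH animals 1 to 6), so that the bar height is the gene's sum. For Acox3 the second transcript takes 84.4 to 88.0% of the sum in 7 livers and 30.0 to 33.5% in the other 5, and for Acaa1a all EtOH sums lie at or below 120.07 and all control sums at or above 126 RPKM.

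The acyl-CoA thioesterases hydrolyse acyl-CoA back to fatty acid and CoA, in the cytosol, mitochondria or peroxisomes. None of the 10 was called, and 7 had a log2 fold change below 0, with a median of -0.15 beside 0.00019 over all transcripts. Acot1 and Acot6 are in these counts, although the transcripts used were above 0 in control livers alone and in EtOH livers alone. Acot5, a peroxisomal form, had 10.5, 13.1 and 18.1 RPKM (lowest, median and highest) in control and 5.13, 8.50 and 9.77 in EtOH livers. The EtOH livers all lay under the lowest control liver, and the log2 fold change was -0.62 ± 0.16 (SE, adjusted p = 0.0688, and 0.0321 to 0.152 over the alternatives). With it, groups did not overlap for 5 of the 61 genes (8.2%), 4 below and 1 above, beside 3.1% of all transcripts (2.43% below and 0.677% above). Overlap was judged on RPKM as deposited, in which abundant transcripts lay lower in the EtOH livers. The share among transcripts averaging 1 RPKM or more was not computed.

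Acot5 lies in a cluster of 138 kb on chromosome 6 with the related genes Acot2, Acot1, Acot4 and Acot6. The mitochondrial form Acot2 had 6.37, 9.89 and 12.2 RPKM in control and 4.31, 8.60 and 10.5 in EtOH livers (-0.14 ± 0.20, adjusted p = 0.77), and Acot4 had 8.73 ± 1.87 and 6.65 ± 1.65 RPKM (-0.27 ± 0.18, adjusted p = 0.53, and -0.15 ± 0.19 with its 3 transcripts summed). Acot1 had 4 recovered reads over its 2 transcripts in all livers together, and Acot6 was above 0 in a single EtOH liver, at 0.269 RPKM. Acot1 and Acot2 are near-identical, so the split of reads between them is uncertain. Outside the cluster, the peroxisomal Acot8 had 4.16 to 6.11 RPKM in control and 3.09 to 4.17 in EtOH livers (-0.34 ± 0.11, adjusted p = 0.16). Acot12, the cytosolic acetyl-CoA hydrolase and the most abundant of the family, had 30.3 ± 4.11 and 28.2 ± 4.49 RPKM (0.047 ± 0.11, adjusted p = 0.87). The remaining forms Acot7, Acot9 and Acot13 had log2 fold changes of -0.15 ± 0.11, -0.15 ± 0.22 and 0.15 ± 0.21.

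The 250 bases before Acot5, at chr6:109432812-109433061 of GRCr8, plus strand, are shown because its groups did not overlap and it carries the hexamer close to its start. Beside it stand those of Acadsb, at chr1:195618966-195619215, plus strand, the gene that rose. Capitals mark AGGTCA as above.
Acot5: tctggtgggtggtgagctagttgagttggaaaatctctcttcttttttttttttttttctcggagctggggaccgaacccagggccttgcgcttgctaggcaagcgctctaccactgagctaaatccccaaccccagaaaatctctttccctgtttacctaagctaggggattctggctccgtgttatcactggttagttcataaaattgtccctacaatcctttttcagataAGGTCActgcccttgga
Acadsb: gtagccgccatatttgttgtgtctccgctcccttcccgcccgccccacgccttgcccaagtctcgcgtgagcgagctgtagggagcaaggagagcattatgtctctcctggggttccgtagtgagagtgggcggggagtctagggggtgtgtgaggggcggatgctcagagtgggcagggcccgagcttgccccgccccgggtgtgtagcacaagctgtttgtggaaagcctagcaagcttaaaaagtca
Acot5 holds the hexamer 17 bases before its start and Acadsb holds none. Acot4, Acot8 and Acadvl, whose groups overlapped and which were not called, hold it 6, 15 and 17 bases before theirs. RefSeq windows of 300 bases (250 before to 50 after the start) were matched by symbol for 49 of the 61 genes. The full direct repeat of PPAR and RXR, a pair of AGGTCA copies spaced by any 1 base, on either strand, was in 0 of the 49 and in 0.0583% of all 27457 windows. The single hexamer AGGTCA, added after the first matches were seen, was in 13 of the 49 (26.5%) and in 15.7% of all windows. The sterol element TCACNCCAC was in 2 (4.08% beside 1.13% of all windows), those of Ehhadh and Acot13, and the E-box in 1 (2.04% beside 6.65%), that of Acsm5. No match of any of these motifs was in a called gene. So few genes were called, and not all of the 61 had a window, that nothing is concluded from this. These are matches of letters within a short window and no evidence of binding.

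The peroxins, which make up the import machinery and membrane of peroxisomes, had group means of 2.95 to 28.9 RPKM apart from Pex5l. Pex5l was above 0 in a single EtOH liver, at 0.224 RPKM. None of the 14 was called, 11 had a log2 fold change below 0, and the median of the 14 was -0.15. Pex5l, at 0 in every control liver, is counted among the genes above 0. Pex11a, the PPAR alpha responsive gene of peroxisome division, had 5.78, 6.75 and 8.12 RPKM (lowest, median and highest) in control and 3.43, 4.61 and 6.65 in EtOH livers (-0.39 ± 0.15, adjusted p = 0.22). Its relative Pex11g had -0.32 ± 0.26. The import receptors for the 2 classes of targeting signal, Pex5 and Pex7, had 23.0 ± 6.3 and 12.0 ± 2.38 RPKM in control and 16.6 ± 3.42 and 9.85 ± 1.59 in EtOH livers, and were not called (adjusted p = 0.56 and 0.65). These are the values of the main transcripts, and for Pex5 the other one had 18.2 ± 5.08 and 17.6 ± 2.73 RPKM, so that the log2 fold change of Pex5 was -0.27 ± 0.19 for the main transcript and -0.11 ± 0.070 for the sum. Pex13, the most abundant peroxin by its mean over all livers, had -0.042 ± 0.083. Pex3, Pex6, Pex10, Pex14 and Pex16 lay between -0.23 (Pex16) and -0.052 (Pex3).

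Other genes of the pathway, from lists not used in choosing the 61, gave 1 to 3 calls per list. Of 36 further fatty acid oxidation and peroxisome genes matched in the table, 2 were called higher and 1 lower (8.33%, beside 2.42% of all transcripts and 4.47% of those averaging 1 RPKM or more). Phyh, the hydroxylase that starts alpha-oxidation of phytanic acid in peroxisomes, had 235, 290 and 349.6 RPKM (lowest, median and highest) in control and 314, 373 and 526 in EtOH livers (0.57 ± 0.12, adjusted p = 0.0316). Acsf2, a mitochondrial synthetase for medium chains, had 16.6, 19.8 and 26.5 RPKM in control and 22.8, 27.7 and 37.7 in EtOH livers (0.62 ± 0.15, adjusted p = 0.0496). Pecr, the peroxisomal trans-2-enoyl-CoA reductase, had 219, 263 and 294 RPKM in control and 163, 188 and 206 in EtOH livers, without overlap (-0.32 ± 0.066, adjusted p = 0.03). The groups overlapped for Phyh and Acsf2, and all 6 EtOH livers were above the control median for both. All 3 calls were sensitive to the analysis: that of Phyh was lost in 10 of 24 alternatives (adjusted p between 0.0143 and 0.113), that of Acsf2 in 19 (0.0191 to 0.162) and that of Pecr in 11 (0.0152 to 0.138).

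Among 19 matched regulators of fatty acid oxidation, Lpin1 and Rxra rose (10.5%, beside the same shares of all transcripts) and none was called lower. Lpin1, which acts both as a phosphatidate phosphatase and as a coactivator of PPAR alpha, had 20.1, 24.5 and 26.6 RPKM (lowest, median and highest) in control and 24.5, 45.9 and 56.8 in EtOH livers (1.00 ± 0.18, adjusted p = 0.0158). Rxra, the partner of PPAR alpha, had 78.7, 80.9 and 86.8 RPKM in control and 82.8, 88.5 and 93.1 in EtOH livers (0.24 ± 0.048, adjusted p = 0.023). Ppara itself had 7.32, 11.9 and 17.0 RPKM in control and 13.0, 16.2 and 20.8 in EtOH livers and was not called (0.59 ± 0.17, adjusted p = 0.0962). All 6 EtOH livers lay above the control median for these 3 genes, with some overlap in each. The call of Lpin1 was lost in 1 of the 24 alternatives. That of Rxra was lost in 7, where adjusted p reached 0.242, among them the fit without normalization between livers. In RPKM as deposited the mean of Rxra was 1.07 times higher in the EtOH livers. Ppara was called in 1, the fit on transcripts averaging 1 RPKM or more (adjusted p = 0.049). Ppard, a related receptor chosen after its values were seen, had 2.89, 7.18 and 10.4 RPKM in control and 1.94, 2.76 and 5.07 in EtOH livers, with no EtOH liver above the control median. It was not called (-0.99 ± 0.28, adjusted p = 0.0888) but was in 3 of the 24 alternatives, with adjusted p from 0.031 to 0.164. Fgf21, a hormone gene of the same list, had 52 reads in all and -0.91 ± 0.38 (adjusted p = 0.27).

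Of 16 matched PPAR alpha targets outside the 61 genes, 1 was called, Pdk4, the kinase that inhibits pyruvate dehydrogenase. That is 6.25%, beside 2.42% of all transcripts and 4.47% of those averaging 1 RPKM or more. Fabp1, Slc25a20 and Slc22a5 are also in the list of 36 further genes above. The RPKM of Pdk4 was 12.9, 21.1 and 34.2 in control and 26.7, 35.1 and 43.7 in EtOH livers (0.89 ± 0.21, adjusted p = 0.0478). Its call was lost in 16 of the 24 alternatives (0.0108 to 0.158). The 16 genes divided evenly, 8 with a log2 fold change above 0, around a median of -0.00040. Within the 61 genes, the log2 fold changes of 5 genes usually counted as PPAR alpha targets were 0.96 for Cpt1a, -0.083 for Ehhadh, -0.43 for the main Acaa1a transcript, 0.025 for Acadm and -0.39 for Pex11a. None of these 5 was called in the main fit. In the fit on summed transcripts Acaa1a was called lower (-0.35 ± 0.079, adjusted p = 0.0219) and Cpt1a higher. The 5 genes are examples and not a full list of such targets, and Acsl1, which was called lower, is not among them.

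**Figure D5:**
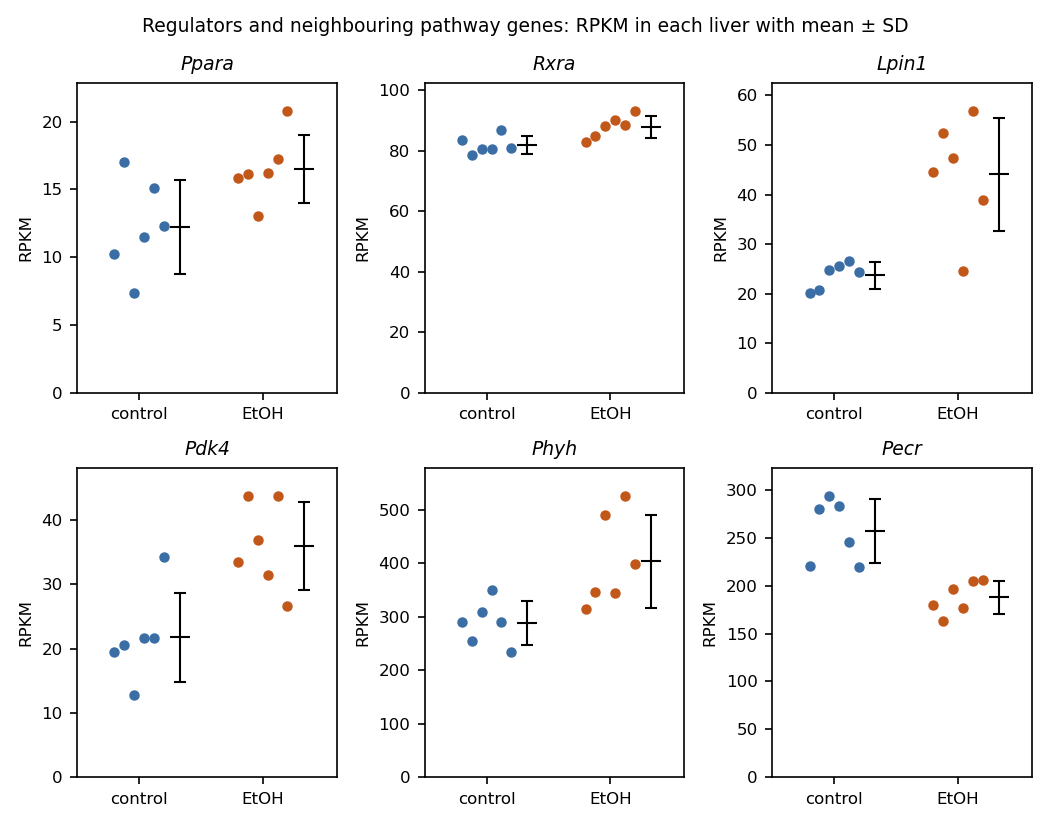
RPKM in each liver (points, animals 1 to 6 from left to right) with mean ± SD for regulators and neighbouring pathway genes. Lpin1, Rxra, Pdk4 and Phyh were called higher and Pecr lower in the EtOH livers, and Ppara was not called, at 7.32 to 17.0 RPKM in control and 13.0 to 20.8 in EtOH livers.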

How the data were processed

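Livers of 6 EtOH and 6 control rats were sequenced in 101-nucleotide paired-end reads. The authors mapped them with CLCbio Genomics Workbench and deposited RPKM per liver for 34391 transcripts, of which 12673 were at 0 throughout. The genome build is not given in the sources used, and positions are as deposited. The authors also deposited a fold change, a test statistic (a score), p-values and FDR of their own comparison, which were not used. Whole reads were recovered from the RPKM steps, as the smallest whole numbers that fit all livers of a transcript within 0.01 of a read. Such numbers were found for 100% of the 21718 transcripts tested. For a transcript above 0 in a single liver a fit always exists, so its read number is a lower bound.

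R 4.3.3 with limma 3.58.1 (mean-variance trend) compared quantile-normalized log2(RPKM + 0.5) values, without a filter, at an adjusted p below 0.05. Python 3.11.15, numpy 2.4.6, pandas 2.3.3, scipy 1.17.1 and matplotlib 3.10.9 did the rest. The fit was also run on simulated data, whose outcome is not reported here and is not used as support.

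The genes, roles, lists and motifs were chosen with earlier results of these data known. Named with values were called genes, the smallest p and highest level of each role, a list of core genes, the 3 largest changes in each direction and genes without overlap, and others were added for completeness. In the counts all 61 genes are included, but 4 of them are not reported one by one here. The labels do not say whether animal numbers pair the samples, and correlations of same-numbered animals lay between -0.067 and 0.032. Alternatives were other pseudocounts, scalings, filters and tests, an animal-number block, livers left out, limma voom on recovered reads and transcripts summed per gene. The p-values rest on separate animals. Depth limits low genes, since 5 of the 61 had fewer than 10 recovered reads, and read-based precision covers counting error only.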

Additional observations from a re-analysis of the deposited data

Results flagged for a closer look

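Single animals stood apart in 2 of the 56 groups examined, 28 named genes in each of the 2 treatments, by Dixon's test at 95%, which flags about 1 group in 20 by chance. Acaa2 had 122.6 RPKM in EtOH animal 2, beside 172 to 183 in the other 5 EtOH animals, from 870 recovered reads. Decr1 had 90.2 RPKM in control animal 1, beside 121 to 137 in the other 5 control animals, from 294 reads. Both genes act in mitochondria, and neither was called. Why these animals differ was not tested.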

How the results depend on the processing

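Of the calls, that of Acsm2 held in all 24 alternatives, while Acsl1 was lost in 6, Etfb in 13 and Acadsb in 2. Against 3 genes called lower, 6 were called without normalization, 5 among transcripts averaging 1 RPKM or more, 6 with transcripts summed, and 1 with median scaling, without a trend or with the animal numbers as a replicate block. Against 1 called higher, 2 were called with that filter and with transcripts summed, and 0 with the replicate block, where Acadsb had an adjusted p of 0.0624 (limma). The labels do not say whether the numbers pair the animals, so what a call lost under the block means cannot be told. Only control animal 1 correlated best with its own number. With each animal left out in turn, lower calls ranged from 1 (without control animal 2, EtOH animal 3 or EtOH animal 5) to 5 (without control animal 1), and higher calls from 0 (EtOH animal 2 left out) to 2 (control animal 6 or EtOH animal 1 left out). The causes were not tested.

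Signs turned for genes with fold changes near 0. Without normalization the log2 fold change was -0.060 for Acadm, -0.13 for Echs1, -0.095 for Hadhb and -0.11 for Acot12. With median scaling it was -0.040 for Echs1, -0.0037 for Hadhb and -0.018 for Acot12, and with limma voom -0.026 for Echs1 and -0.019 for Acot12. With animals left out the range was -0.081 to 0.00061 for Acadl, -0.16 to 0.0021 for Cpt2, -0.0098 to 0.090 for Acot12 and -0.25 to 0.017 for Acot2. None of these genes was called in any alternative.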

Other observations

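The genes with the fewest reads are listed for completeness. Acot1 had 0.257 and 0.29 RPKM in control animals 2 and 4 from one transcript, and 0.0947 and 0.108 in EtOH animals 3 and 4 from the other. Acsm4 was above 0 in EtOH animals 4 and 6 only, with 0.0831 and 0.108 RPKM. Acsl6, Acot6 and Pex5l were each above 0 in a single EtOH liver. At 1 to 4 recovered reads, the smallest numbers that fit, no difference between groups was detectable at this depth. Cpt1b, the muscle form of the carnitine palmitoyltransferase, had 115 reads over its 3 transcripts in all livers, which summed to 1.82 RPKM in control animal 1 and to 0.305 to 1.08 in the other control animals. The muscle marker Acta1 was also highest in control animal 1, at 0.957 RPKM beside at most 0.357 in the other control animals, from 14 reads in all livers together. The only other matched muscle marker, Tnnt3, was at 0 in control animal 1, with 3 reads in all livers together. A part of muscle in the Cpt1b value was not tested.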
